A study of Mus musculus with 8 samples.

Results

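The 10 genes described here form the core loop of the mammalian circadian clock: the activators Arntl (which encodes BMAL1), Clock and Npas2, and the repressors Per1, Per2, Per3, Cry1, Cry2, Nr1d1 and Nr1d2. They were picked by name from a table of 16369 genes, each matched 1 row, and all 10 were kept by the filter on low counts that left 12227 genes for testing. The list was drawn up with the difference between oligonucleotide-treated and control cells already known, so that difference is given for these genes as a description, without a p-value. How many of them were past the threshold used for all genes is given only beside the same count over all genes, and supports nothing.

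RNA-seq was done on 8 libraries of MLO-Y4 cells, an osteocyte-like line from mouse. In 4 of them, labelled H19 silenced, the cells had received an antisense oligonucleotide (ASO) directed at H19, a long non-coding RNA. The remaining 4, labelled WT for genotype and NC in the table, were controls whose treatment is not spelled out. All 8 came from cells under fluid shear stress (2 Pa, 4 cycles, in a chamber slide) that were grown with 2.5% fetal bovine serum and 2.5% calf serum. There was 1 time point, the hour of harvest is not given, and no library came from cells without flow, so a shift in clock phase and a change in overall level cannot be told apart, and neither the response to flow nor a rhythm can be read from these samples. Separate cultures are not named in the labels, so the spread within a group, on which p-values rest, may be technical. H19 itself is not analysed here.

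The libraries held 19501984 to 19914209 estimated reads. Markers that define osteocytes were in part near 0, with Sost and Mepe at a mean of at most 0.035 TPM (the level per transcript length, scaled to depth). Dmp1, another of them, fell from 1.14 ± 0.381 to 0.41 ± 0.212 TPM (SD, n = 4; log2 fold change -1.46 ± 0.34 SE, edgeR adjusted p = 0.012). Of the 6 osteocyte markers tested, Dstn also fell (-0.25 ± 0.06), Pdpn (0.22 ± 0.06) and Capg (0.17 ± 0.05) rose, with calls that ended in 5 and 8 of 8 fits without a library, and the summed TPM ran from 1200 to 1270 in controls and from 1226 to 1354 with the ASO. Both chondrocyte markers tested fell, Sox9 (-0.44 ± 0.11, adjusted p = 0.017, not called without control replicate 4) and Col2a1 (-1.07 ± 0.24, adjusted p = 0.0093). Col2a1 was at a low level, 0.39 ± 0.051 TPM in controls and 0.18 ± 0.019 TPM with the ASO. Comp, below the filter, was at 0.15 ± 0.110 TPM in controls and 0.22 ± 0.080 TPM with the ASO, and Acan had no row. The summed TPM of that list did not overlap (88.0 to 129 and 63.7 to 85.5) and was mostly Sox9 (87.5 to 128 TPM in controls). Of 5 osteoblast markers tested, Alpl (0.37 ± 0.07, adjusted p = 0.0039) and Sp7 (0.43 ± 0.12, adjusted p = 0.026) rose and Bglap, whose counts were in part not whole, fell (-0.60 ± 0.15, adjusted p = 0.018), with sums of 1660 to 2216 and 1702 to 2259 TPM. Sp7 was not called in 5 of 8 fits without a library, and Bglap was not called without control replicate 2. The osteoblast sums were mostly Col1a1 (1480 to 2008 TPM in controls). The sum of the macrophage and osteoclast markers, 107 to 156 TPM in controls and 115 to 146 TPM with the ASO, was mostly Ctsk (94.6 to 141 TPM in controls). Of the 4 tested, Cd68 rose (1.54 ± 0.13, adjusted p = 1.7e-05). Csf1r did not pass (0.68 ± 0.22, adjusted p = 0.052) but did without ASO replicate 3 or ASO replicate 4. The other tested members, Acp5 (-0.63 ± 0.30, adjusted p = 0.17) and Ctsk (-0.23 ± 0.15, adjusted p = 0.31), were lower with the ASO and did not pass. Ptprc and Itgam had means of at most 0.13 TPM in either group. Neither of the 2 adipocyte markers tested passed (sums 14.0 to 19.4 and 14.3 to 15.6 TPM), and Pecam1, the 1 endothelial marker with a row, was at 0.03 to 0.17 and 0.19 to 0.42 TPM. At an edgeR adjusted p under 0.05, 7.11% of all tested genes rose and 7.53% fell, and nothing is read from the counts of markers. The part of these markers in the clock gene results was not tested. Over all tested genes, deviations from the group mean correlated positively between samples 1 and 2 of one group and samples 1 and 2 of the other, and likewise for samples 3 and 4 (0.049 to 0.252), and negatively across these parts (-0.268 to -0.082). The labels do not mention this division, which was seen in these same libraries, so p-values from fits with it in the model may be too small. The clock genes are also given within each part.

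In the textbook loop, BMAL1 pairs with CLOCK or its relative NPAS2 and binds E-boxes in the promoters of the Per, Cry and Nr1d genes. PER and CRY proteins then return to the nucleus and block that pair, while the REV-ERB receptors encoded by Nr1d1 and Nr1d2 bind ROR elements and repress Arntl and, more weakly, Clock, Npas2 and Cry1. D-boxes, bound by DBP, TEF and HLF as activators and by NFIL3 as a repressor, form a further branch. Bone cells are known to carry such a clock of their own.

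Promoter sequences from RefSeq (GRCm38.p6, 250 bases before to 50 after a start site) were found for 9 of the 10 genes, in 13 windows. Per2 had no entry. The sequences below are those that hold the best known response element of each branch of the loop. Per1 and Cry1, which both hold an E-box, stood on opposite sides of control. Whether the genes divide by element was not tested. Capitals mark an E-box (CACGTG), an E′-box (CACGTT on either strand), a D-box (TTATGTAA) or a ROR element (searched by its name's consensus), on both strands. Positions count from the start site at +1.
Arntl, chr7:113207261-113207560, plus strand: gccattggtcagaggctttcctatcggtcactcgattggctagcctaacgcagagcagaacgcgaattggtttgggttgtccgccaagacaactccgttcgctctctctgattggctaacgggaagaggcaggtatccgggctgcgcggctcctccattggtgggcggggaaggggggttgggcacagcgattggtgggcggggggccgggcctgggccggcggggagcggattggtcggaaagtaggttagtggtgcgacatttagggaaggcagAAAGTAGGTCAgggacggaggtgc
Per3, chr4:151044616-151044915, minus strand: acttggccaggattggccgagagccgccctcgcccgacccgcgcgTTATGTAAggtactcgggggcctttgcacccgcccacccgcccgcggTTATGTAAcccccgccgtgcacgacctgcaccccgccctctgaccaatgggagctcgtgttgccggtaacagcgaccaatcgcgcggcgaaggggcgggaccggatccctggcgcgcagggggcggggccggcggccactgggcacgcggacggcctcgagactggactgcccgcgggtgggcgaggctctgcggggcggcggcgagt
Per1, chr11:69098699-69098998, plus strand: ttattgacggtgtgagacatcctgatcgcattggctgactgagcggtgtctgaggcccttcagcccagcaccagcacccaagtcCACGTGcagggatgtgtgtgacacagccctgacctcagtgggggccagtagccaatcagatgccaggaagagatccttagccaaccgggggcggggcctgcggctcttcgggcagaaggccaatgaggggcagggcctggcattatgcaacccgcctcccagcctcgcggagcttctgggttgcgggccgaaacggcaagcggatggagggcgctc
Cry1, chr10:85185005-85185304, minus strand: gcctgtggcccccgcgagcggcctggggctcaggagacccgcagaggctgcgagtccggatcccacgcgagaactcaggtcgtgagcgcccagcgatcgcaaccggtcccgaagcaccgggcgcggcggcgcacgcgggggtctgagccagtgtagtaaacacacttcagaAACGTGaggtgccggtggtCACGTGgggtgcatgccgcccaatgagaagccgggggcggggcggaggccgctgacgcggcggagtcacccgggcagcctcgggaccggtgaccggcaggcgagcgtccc

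The Arntl window held a ROR element, AAAGTAGGTCA, that began at position 27, and 0.384% of all 32851 promoter windows held such an element. Per3 held 2 D-boxes, which began at -205 and -158, against 0.938% of all windows with at least 1. An E-box lay at -166 in Per1 and at -60 in Cry1, a motif found in 7.15% of windows, and Cry1 also held an E′-box at -79. Single E′-boxes lay at -166 in Cry2 and at -28 in Nr1d1, against 4.68% of windows. The hexamer AGGTCA, which is part of the ROR element and lies in 16.3% of windows, was also found in Clock, Per1 and Nr1d2. None of the motifs was found in the window of Npas2. The cyclic AMP response element TGACGTCA, in 1.79% of windows, was not found in the windows of these genes. A match is a description of the letters and does not show binding.

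In 9 of the 10 genes, all ASO libraries lay on the same side of the control range. They were higher in 5 (Per1, Per3, Cry2, Nr1d1 and Nr1d2) and lower in 4 (Arntl, Clock, Npas2 and Cry1). All 3 activators were lower, and of the 7 repressor genes Cry1 alone was lower. At the threshold used for all genes (edgeR adjusted p under 0.05), which 14.6% of all tested genes passed, 7.11% higher and 7.53% lower, 5 of the 10 were counted higher and 4 lower, and 19.1% of all tested genes had groups that did not overlap, 9.77% higher and 9.36% lower. The median absolute log2 fold change was 0.60 for the 10 genes and 0.12 for all tested genes. These counts follow from a choice made with this contrast known, and nothing is read from them.

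**Figure D1:**
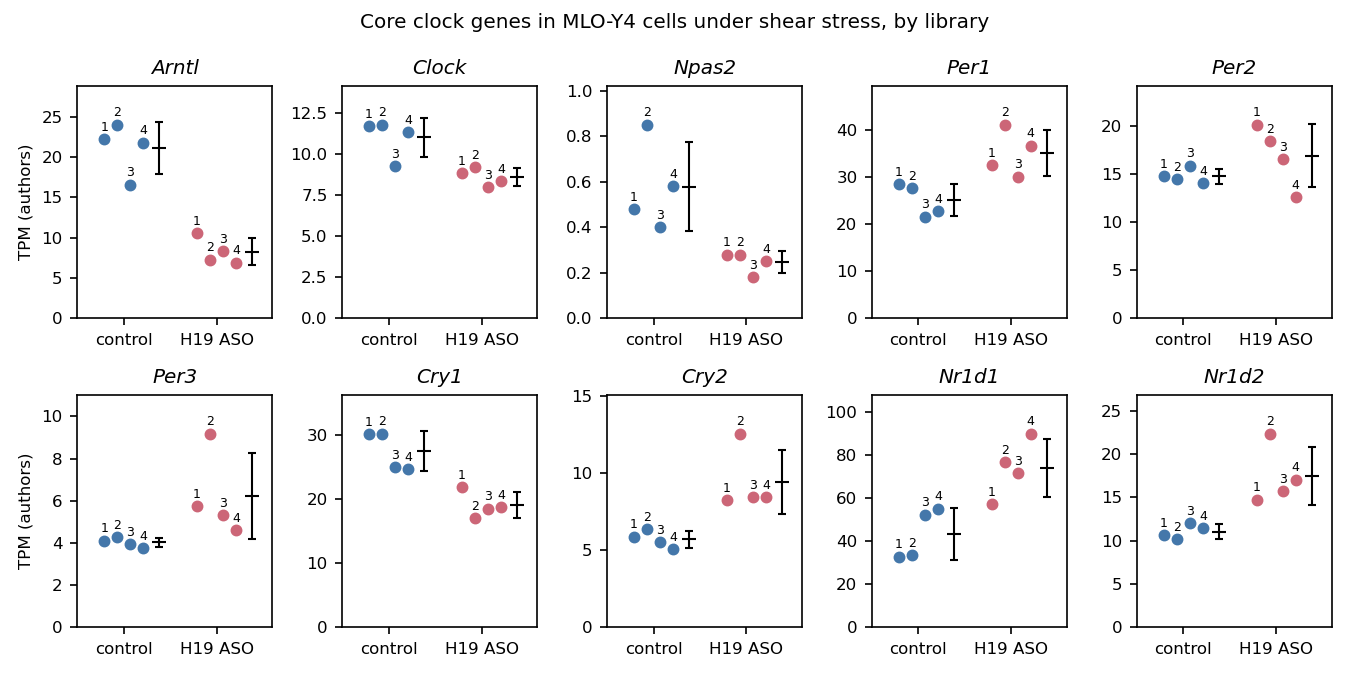
TPM (vertical axis, from 0) of each core clock gene in the 4 control and 4 ASO libraries, with the replicate number above each point and the mean ± SD in black. The groups are apart for every gene except Per2, whose ASO libraries run from 12.6 to 20.1 TPM around controls of 14.0 to 15.9 TPM.

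Of the activators, Arntl and Npas2 had the largest differences from control among the 10 genes. Arntl (gene 11865, chromosome 7, 113178471 to 113314126, GRCm38.p6), the partner without which the loop does not run, was at 22.2, 24.0, 16.6 and 21.8 TPM in control replicates 1 to 4 and at 10.6, 7.26, 8.30 and 6.92 TPM in ASO replicates 1 to 4. The highest ASO library was thus well below the lowest control, and the mean went from 21.1 ± 3.19 TPM to 8.26 ± 1.65 TPM (SD, n = 4). The log2 fold change, from counts, was -1.34 ± 0.13 (SE), that is 0.395 times the control level, and it stayed between -1.47 and -1.27 when each library was left out in turn. Clock (gene 12753, chromosome 5, 76209868 to 76305603), which encodes the other part of the activator pair, was at 11.7, 11.8, 9.27 and 11.3 TPM in controls and at 8.83, 9.21, 7.97 and 8.33 TPM with the ASO. Here the groups nearly touched, at control replicate 3 and ASO replicate 2, and the log2 fold change was -0.34 ± 0.08. Npas2 (gene 18143, chromosome 1, 39193702 to 39363240), a relative of Clock that can replace it, had 22, 39, 19 and 27 reads in controls and 13, 13, 9 and 12 reads with the ASO. These are low counts, at 0.578 ± 0.196 TPM and 0.248 ± 0.047 TPM, and the log2 fold change of -1.21 ± 0.28 has the widest error of the 10.

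The Nr1d genes, which encode the REV-ERB repressors of Arntl, stood on the other side. Nr1d1 (gene 217166, chromosome 11, 98767932 to 98775377) was at 32.9, 33.4, 52.4 and 55.2 TPM in controls and at 57.2, 76.7, 71.7 and 89.9 TPM with the ASO. Control replicates 3 and 4 were well above control replicates 1 and 2 and came close to ASO replicate 1. The log2 fold change was 0.78 ± 0.17, while within the controls replicates 3 and 4 exceeded replicates 1 and 2 by 0.70 on the log2 scale. Compared within parts, the ASO difference was 1.01 in samples 1 and 2 and 0.63 in samples 3 and 4. Exons of Nr1d1 and of Thra, a thyroid hormone receptor gene on the opposite strand, share 263 bases, 8.55% of the exonic bases of Nr1d1, and strand was not known to be used in counting. Thra stood at 72.7 to 87.2 TPM in controls and at 73.3 to 87.6 TPM with the ASO (log2 fold change -0.0055 ± 0.07, adjusted p = 0.97). Nr1d2 (gene 353187, chromosome 14, 18204056 to 18239106), the second REV-ERB gene, was at 10.6, 10.2, 12.0 and 11.4 TPM in controls and at 14.7, 22.3, 15.7 and 17.0 TPM with the ASO. Its groups were clearly apart, with ASO replicate 2 the highest, and the log2 fold change was 0.68 ± 0.10.

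The 3 Per genes encode the scaffold of the repressor complex, and every ASO library of Per1 and of Per3 lay above the control range. Per1 (gene 18626, chromosome 11, 69095108 to 69109965) was at 28.5, 27.7, 21.6 and 22.7 TPM in controls and at 32.6, 41.2, 30.1 and 36.7 TPM with the ASO. The lowest ASO library exceeded the highest control by little, and the log2 fold change was 0.50 ± 0.10. Per3 (gene 18628, chromosome 4, 150997018 to 151044707), whose promoter holds the pair of D-boxes shown above, was at 4.11, 4.29, 3.94 and 3.76 TPM in controls and at 5.74, 9.18, 5.31 and 4.60 TPM with the ASO. The controls were tightly grouped and the ASO libraries were not: ASO replicate 2 stood far above the others and ASO replicate 4 just above the controls. The log2 fold change of Per3 was 0.61 ± 0.16, and it was 0.37 without ASO replicate 2. It was 0.82 in samples 1 and 2 alone and 0.34 in samples 3 and 4.

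Per2 (gene 18627, chromosome 1, 91415977 to 91459351) was at 14.8, 14.4, 15.9 and 14.0 TPM in controls and at 20.1, 18.4, 16.5 and 12.6 TPM with the ASO. ASO replicates 1, 2 and 3 lay above every control, whereas ASO replicate 4 lay below every control. The log2 fold change was 0.22 ± 0.11. It was 0.33 without ASO replicate 4 and 0.12 without ASO replicate 1, and it was 0.40 in samples 1 and 2 alone against 0.01 in samples 3 and 4.

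The 2 cryptochrome genes, whose proteins repress the BMAL1 and CLOCK pair directly, stood on opposite sides. Cry1 (gene 12952, chromosome 10, 85131700 to 85185054) was at 30.2, 30.3, 25.0 and 24.7 TPM in controls and at 21.9, 17.0, 18.6 and 18.8 TPM with the ASO. All ASO libraries were lower, with a log2 fold change of -0.51 ± 0.09. Cry2 (gene 12953, chromosome 2, 92403646 to 92434085) was at 5.90, 6.39, 5.55 and 5.09 TPM in controls and at 8.25, 12.6, 8.44 and 8.45 TPM with the ASO. An antisense transcript gene, D930015M05Rik, covers 295 of the 6320 exonic bases of Cry2 and is not analysed here. The ASO libraries were all higher for Cry2, with a log2 fold change from counts of 0.59 ± 0.10. ASO replicate 2 stood out among them in TPM and less so in reads, at 462 against 344, 379 and 411.

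Among the 6 genes with a positive log2 fold change, the highest ASO library was replicate 2 in 4 (Per1, Per3, Cry2 and Nr1d2), replicate 4 in Nr1d1 and replicate 1 in Per2. Within the ASO group, samples 3 and 4 were lower than samples 1 and 2 by 0.55 in Per3 and by 0.37 in Per2 and higher by 0.33 in Nr1d1 (log2 differences). Within the controls the same difference was 0.70 in Nr1d1, -0.37 in Npas2, -0.34 in Per1, -0.28 in Cry1 and -0.25 in Arntl, and between -0.19 and 0.18 in the other genes. Whether the ASO difference itself changed between the parts was tested with an interaction term in edgeR over all genes. The adjusted p of the 10 genes ran from 0.67 to 0.99, with the greatest changes in Per3 (-0.48), Per2 (-0.39) and Nr1d1 (-0.38), so a change between parts was not detectable with 2 libraries each, which does not show that the parts were alike.

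Ratios between clock genes within a library do not depend on depth or on the scaling between libraries. There were 1.48, 1.39, 3.16 and 2.54 Nr1d1 transcripts per Arntl transcript in control replicates 1 to 4, and 5.41, 10.6, 8.64 and 13.0 in ASO replicates 1 to 4. The ratio was higher in every ASO library than in any control, with a difference in log2 ratio of 2.15. Nr1d2 over Arntl ran from 0.424 to 0.726 in controls and from 1.39 to 3.08 with the ASO, and Per3 over Arntl from 0.173 to 0.238 and from 0.543 to 1.26. All repressor genes set against Arntl lay higher relative to it in each ASO library than in any control. The ratios to Arntl share that gene, which was itself lower with the ASO, so they are not independent of each other. All pairs were formed from genes chosen with this contrast known, so groups that lie apart are a description and support nothing. For Per1 over Arntl the ratio ran from 1.05 to 1.31 in controls and from 3.08 to 5.67 with the ASO. Per2 over Arntl ran from 0.601 to 0.957 in controls and from 1.81 to 2.53 with the ASO, so that Per2, which alone overlapped in level, passed from below to above Arntl in rank. The ratio of Cry1 to Cry2 was close among the controls, at 5.12, 4.73, 4.51 and 4.85, and with the ASO was 2.66, 1.35, 2.20 and 2.22. Npas2 was present at 0.041 to 0.072 transcripts per Clock transcript in controls and at 0.023 to 0.032 with the ASO. A ratio shows that a pair changed unequally and not which gene of it changed.

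**Figure D2:**
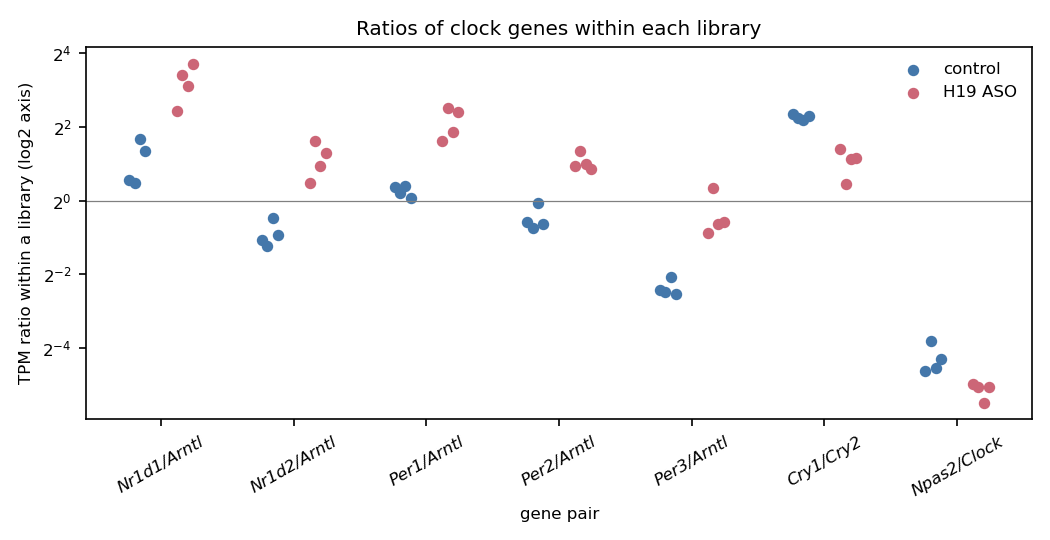
Ratio of TPM of 2 clock genes within each library (log2 axis), for 7 pairs, with the 4 control and 4 ASO libraries as points in replicate order. For all 7 pairs, formed from genes chosen with this contrast known, the groups are apart. Nr1d1 over Arntl runs from 1.39 to 3.16 in controls and from 5.41 to 13.0 with the ASO.

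In control cells the order of levels per length, by mean TPM, was Nr1d1 (43.5 ± 12.0), Cry1 (27.5 ± 3.10), Per1 (25.1 ± 3.45), Arntl (21.1 ± 3.19), Per2 (14.8 ± 0.781), Nr1d2 (11.1 ± 0.827), Clock (11.025 ± 1.19), Cry2 (5.73 ± 0.550), Per3 (4.03 ± 0.227) and Npas2 (0.578 ± 0.196). Of the 9 neighbouring pairs in this order, 6 did not overlap in their 4 control libraries. Cry1 with Per1, Per1 with Arntl and Nr1d2 with Clock overlapped and are not ordered by these data. Nr1d1 lay above 73.8% of all tested genes and Npas2 above 4.65%. With the ASO Arntl moved by its mean from the fourth to the eighth place, at 8.26 ± 1.65 TPM, and 3 of the 9 neighbouring pairs did not overlap. Arntl overlapped its neighbours Clock and Per3 there and is not ordered against them by these data.

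**Figure D3:**
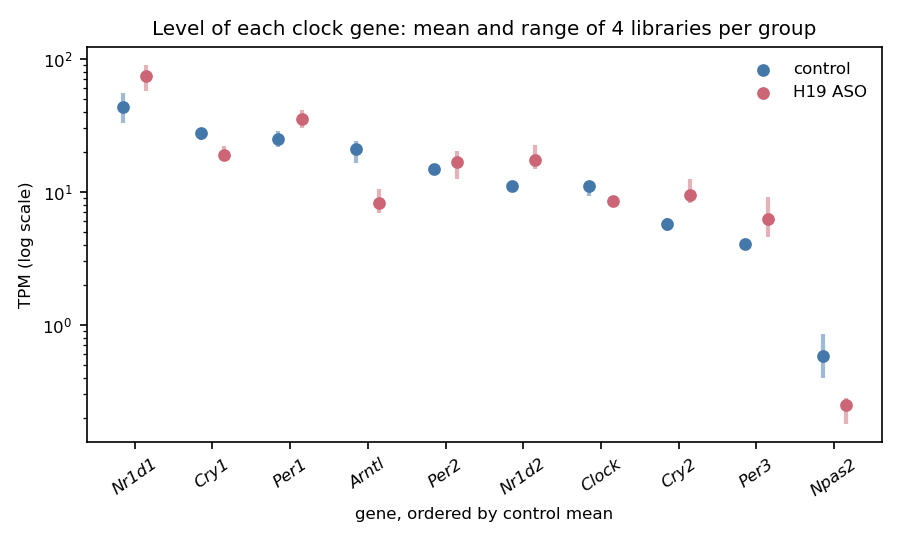
Mean TPM (points) and range over 4 libraries (bars) of each clock gene on a log scale, for control and ASO libraries, ordered by the control mean. Nr1d1 is highest and Npas2 lowest in both groups, and Arntl falls in rank by its mean, from 21.1 to 8.26 TPM. With the ASO it overlaps its neighbours Clock and Per3.

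Other genes of the clock pathway were read from 4 lists that were not picked by how the genes moved, although earlier results of these data were known. Of 67 tested members, 3 rose and 8 fell (edgeR, adjusted p under 0.05 over all genes), that is 16.4% against 14.6% of all tested genes, with a median log2 fold change of -0.05 against 0.0026 for all genes. The share called over the 4 lists together was therefore close to the background, where 7.11% of all tested genes rose and 7.53% fell. Most of the calls were among the secondary loop factors and the signal inputs given below. The count of falls was 3 when control replicate 2, control replicate 4 or ASO replicate 4 was left out, 4 without ASO replicate 3, and 15 with the division of samples in the model. The count of rises was 5 without control replicate 3 and 8 with the division. Counts over all genes moved as well, to between 9.0% and 10.3% called in the 3 fits with 3 falls, 9.7% without ASO replicate 3, 14.8% without control replicate 3 and 25.6% with the division.

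Of 10 transcription factors of the secondary loops, 8 were tested, 2 rose and 1 fell, with a median log2 fold change of -0.01. Dbp, a D-box activator driven by E-boxes, was at 29.4, 27.5, 32.4 and 28.6 TPM in controls and at 58.5, 85.5, 58.5 and 59.3 TPM with the ASO. It rose by 1.18 ± 0.11 on the log2 scale (adjusted p = 4.5e-05), more than any of the 10 core genes that were higher. Tef, a D-box activator of the same family, rose from 91.5 ± 6.84 to 135 ± 11.6 CPM (reads scaled to library size), by 0.56 ± 0.07 (adjusted p = 3.7e-04). Nfil3, the D-box repressor, fell from 92.5 ± 9.96 to 67.8 ± 4.79 CPM (-0.45 ± 0.08, adjusted p = 0.0027). Ciart, a repressor of the BMAL1 and CLOCK pair, did not pass at 0.51 ± 0.17 (adjusted p = 0.057) but did without control replicate 3 or ASO replicate 1. It also passed with the division in the model (adjusted p = 0.0040), in samples 1 and 2 alone (0.029, against 0.069 in samples 3 and 4), with no filter (0.038) and in DESeq2 (0.028). Rora, the ROR receptor that competes with REV-ERB, did not pass (-0.19 ± 0.09, adjusted p = 0.19), nor did the E-box repressors Bhlhe40 (0.01 ± 0.07, adjusted p = 0.92) and Bhlhe41 (-0.03 ± 0.09, adjusted p = 0.83). Hlf and Rorb had between 0 and 4 reads per library and were below the filter.

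Of 22 kinases, phosphatases and ubiquitin ligases that act on clock proteins, 0 rose and 1 fell, with a median of -0.02. It was Csnk1e, a kinase that marks PER for breakdown (-0.21 ± 0.06, adjusted p = 0.035), and with single libraries left out that call ended in 6 of 8 fits, holding without control replicate 1 or ASO replicate 1. The adjusted p was 0.28 in samples 1 and 2 and 0.0088 in samples 3 and 4. Its paralogue Csnk1d did not pass (0.03 ± 0.06, adjusted p = 0.71). Usp2, a deubiquitinase with clock substrates, reached 0.47 ± 0.15 (adjusted p = 0.054), and passed without control replicate 1 or ASO replicate 3. It also passed with the division in the model (adjusted p = 4.3e-04), in samples 1 and 2 (0.043) and samples 3 and 4 (6.0e-04) alone, with library size scaling (0.046), with no filter (0.030) and in DESeq2 (0.024), but not on TPM or FPKM scales (0.10 to 0.26). The phosphatase gene Ppp1ca did not pass (0.16 ± 0.06, adjusted p = 0.076), but did with the division in the model (0.024) and in DESeq2 (0.041). Of 23 cofactors, 0 rose and 2 fell, with a median of -0.07: Ddx5, an RNA helicase found in PER complexes (-0.20 ± 0.06, adjusted p = 0.042), and the acetyltransferase gene Kat2b (-0.26 ± 0.08, adjusted p = 0.043). With single libraries left out, the call of Ddx5 ended in 7 and that of Kat2b in 6 of 8 fits, both holding without control replicate 3 and Kat2b also without ASO replicate 2. Both calls held in samples 1 and 2 alone and not in samples 3 and 4 (adjusted p = 0.25 and 0.099). The heterochromatin protein gene Cbx3 (0.17 ± 0.06, adjusted p = 0.064) and the deacetylase gene Sirt1 (-0.18 ± 0.06, adjusted p = 0.072) did not pass. With the division in the model both did (adjusted p = 0.017 and 0.034), and Cbx3 was at 0.049 in DESeq2. The corepressor genes Ncor1 and Hdac3, through which REV-ERB acts, were among the members that did not pass.

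Of 14 genes of signal inputs to Per transcription, 1 rose and 4 fell, with a median of -0.07. Sik1, a kinase that damps CREB signalling to Per1, rose from 54.8 ± 2.34 to 75.4 ± 13.3 CPM (0.46 ± 0.10, adjusted p = 0.0079). Hif1a, a hypoxia factor of the same protein family as the clock activators, fell from 279 ± 13.0 to 222 ± 7.83 CPM (-0.33 ± 0.06, adjusted p = 0.0023). Nr3c1, the glucocorticoid receptor gene, fell from 111 ± 2.29 to 89.9 ± 5.44 CPM (-0.31 ± 0.06, adjusted p = 0.0036), while its targets Fkbp5 (-0.18 ± 0.11, adjusted p = 0.26) and Tsc22d3 (0.05 ± 0.20, adjusted p = 0.90) did not pass. Srf (-0.27 ± 0.07, adjusted p = 0.019) and the CREB coactivator gene Crtc3 (-0.28 ± 0.07, adjusted p = 0.024) also fell. The call of Srf ended when control replicate 2 or 4 or ASO replicate 4 was left out (adjusted p up to 0.058) and in samples 1 and 2 alone (0.079), and that of Crtc3 in 5 of the 8 fits, and it held when control replicate 1 or 3 or ASO replicate 1 was left out.

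**Figure D4:**
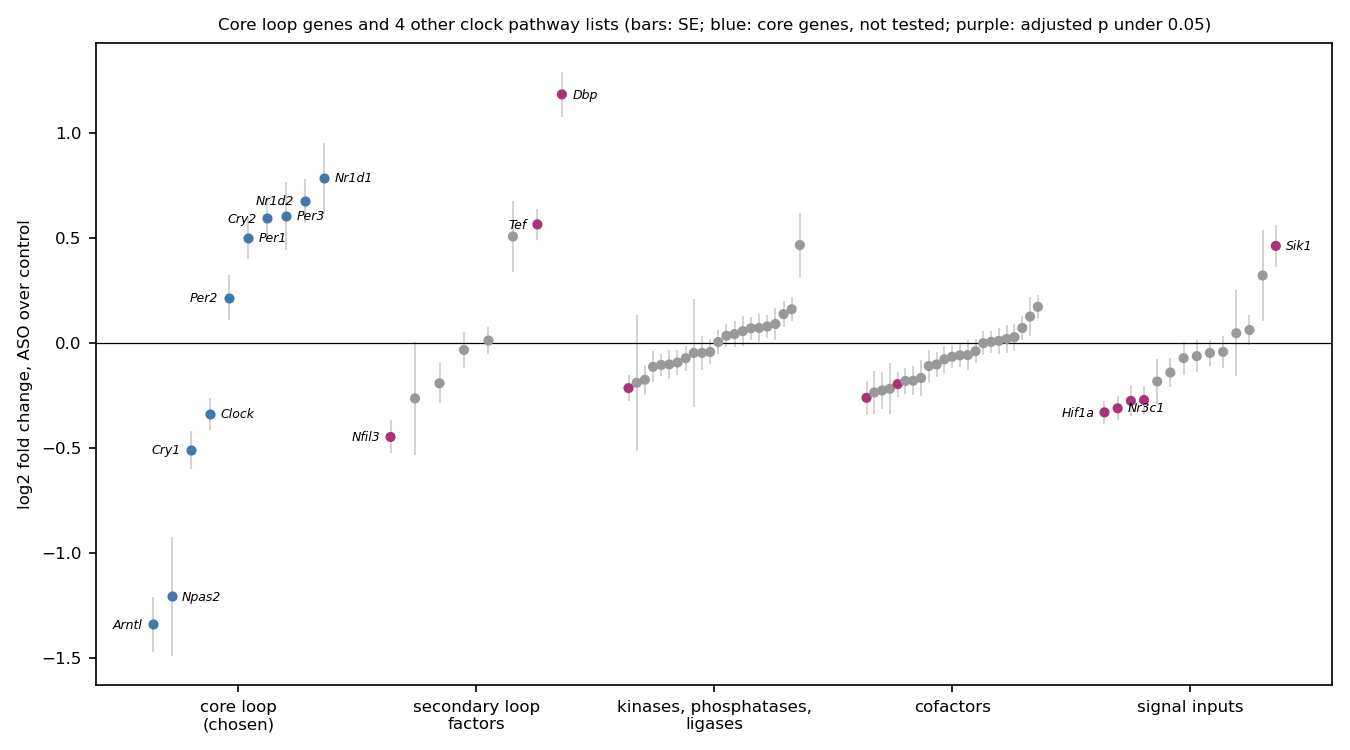
Log2 fold change of ASO over control (points, with SE) for the 10 core clock genes, in blue, and for the 67 tested genes of 4 other pathway lists, the latter coloured where the adjusted p is under 0.05 and named where the size also exceeds 0.3. The core genes, which were chosen with this contrast known, run from -1.34 to 0.78, and Dbp is the highest at 1.18.

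The genes whose pattern over the 8 libraries lay nearest to a core gene were searched among 11265 genes, by the root mean square difference of centred log2 CPM. For Arntl they were Pi16 (0.17) and the aldehyde dehydrogenase gene Aldh3a1 (0.21), for Npas2 Mvb12b (0.16) and the aminopeptidase gene Enpep (0.21), and for Nr1d1 the proenkephalin gene Penk (0.14) and Neurl1b (0.15). The likeness is a description over 8 libraries that share the group difference. Pi16, Mvb12b, Penk and Neurl1b were at low levels, from 0.40 to 5.17 CPM over these libraries, so their likeness rests on few reads.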

How the data were processed

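RNA-seq was measured in 8 libraries, grouped by their titles. Trizol was the extraction reagent, per the labels' protocols. HISAT and Bowtie2, and mm10 and GRCm38.p6 as builds, are named in the submitters' processing notes with neither role nor version. On the counting tool and its use of strand, the sources used here give nothing. Deposited by the authors were estimated counts, FPKM and TPM per gene and library, in 1 table, per the file headers. Per library, 6.01% to 6.60% of genes had estimated counts that were not whole, but these were whole for the 10 core clock genes in all libraries, and were rounded. Of the gene identifiers, 99.7% matched RefSeq (GRCm38.p6).

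Genes kept by filterByExpr (12227) were tested in R 4.3.3 by the quasi-likelihood test of edgeR 4.0.16 (glmQLFit, glmQLFTest) after TMM scaling. Group was the only term, and p-values were adjusted by Benjamini-Hochberg with a threshold of 0.05. SE were derived from the F statistic, and CPM are after TMM. The core genes, lists, tests and the sample division were chosen with earlier results of these data known. Named were all 10 core genes, up to 4 members with the smallest p per list, genes that overlap a core gene in GENCODE M21 and are in the table, and the 2 nearest in pattern for the 3 core genes of largest SD. A gene that this rule names is not reported here. Rora, Bhlhe40, Bhlhe41, Csnk1d, Fkbp5, Tsc22d3, Crtc3, Ncor1 and Hdac3 were added for their roles after their values were seen. Camta1, which overlaps Per3 on the same strand without shared exonic bases, had a log2 fold change of 0.03. Log2 CPM for patterns used a prior count of 2 and genes with a mean of at least 1 CPM. No library was a repeat of another (chi-square per degree of freedom 4.86 to 19.1 between replicates). Alternatives used DESeq2 1.42.0, limma 3.58.1, other scalings and filters, log2(TPM + 1), log2(TPM + 0.1) and log2(FPKM + 1), and left-out libraries. The marker lists were of osteocytes, osteoblasts, chondrocytes, macrophages and osteoclasts, endothelial cells and adipocytes.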

Additional observations from a re-analysis of the deposited data

Results flagged for a closer look

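In 2 of 52 groups of 4 libraries, taken over the core genes and the members named by the smallest p in the pathway lists, 1 library lay far from the other 3. Chance flags about 1 in 20 such groups. Dbp stood at 72.8 CPM in ASO replicate 2, against 50.9 to 52.5 CPM in the other ASO libraries. Ciart stood at 8.60 CPM in ASO replicate 1, against 11.8 to 12.4 CPM in the others. None of the 10 core clock genes was flagged in this way on CPM. The rule was not applied to TPM, where Cry2 stood at 12.6 in ASO replicate 2, against 8.25 to 8.45 in the other ASO libraries.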

How the results depend on the processing

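The log2 fold changes of the 10 core clock genes kept their sign in all alternatives run, and 215 of these values, all but 1, moved by less than 1 SD between replicates. The exception was Npas2 on log2(TPM + 1) without a filter (-0.33), where the added 1 exceeds its level. The core genes past the threshold, which follow from their choice and from which no stability is read, were 5 higher and 4 lower. The 5 were 3 on log2(TPM + 1) without a filter, 4 on log2(TPM + 1) and log2(TPM + 0.1) with a filter, and 6 in samples 1 and 2. With 1 library left out they were 4 to 6, and the 4 stayed at 4. The 4 were 3 with the filter of at least 5 CPM, on each TPM and FPKM scale, and in samples 1 and 2. Over all genes, 1790 were called, against 1167 on log2(TPM + 1) without a filter and 1441 with at least 5 CPM. The filtered TPM and FPKM scales gave 1344 to 1402. There were 3136 with the sample division as a term, 1036 in samples 1 and 2, 2135 in samples 3 and 4, and 1105 to 1940 with 1 library left out. For the other pathway genes the 3 rises were 7 with DESeq2, 5 with no filter, 8 with the replicate block, 8 with the sample division as a term, 5 in samples 1 and 2 and 5 in samples 3 and 4, and 3 to 5 with 1 library left out. The 8 falls were 5 on log2(TPM + 1) without a filter, 4 on log2(FPKM + 1), 15 with the division, and 3 to 9 with 1 library left out. The cause was not tested. The replicate numbers were not taken to pair the samples, as same-numbered deviations correlated at 0.05, 0.14, 0.21 and 0.13. With the replicate block 2575 genes were called, 11 of the other pathway genes fell, and Ciart (adjusted p = 0.0063), Usp2 (0.0014), Ppp1ca (0.044) and Cbx3 (0.042) passed. The calls of Csnk1e, Ddx5 and Kat2b ended on log2(FPKM + 1) (adjusted p = 0.061, 0.062 and 0.058), and that of Sik1 on log2(TPM + 1) without a filter (0.076). The 6 separate neighbours in the order of control levels and the 7 ratios held under each alternative run for them. No scaling moved the median of all genes by more than 0.02. Npas2 fell below the filters of at least 5 CPM and of a mean of 1 TPM or FPKM and has no value there. Depth limits Npas2 most, with 9 to 39 reads per library.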
